A study of Mus musculus with 23 samples.

Results

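Mature luminal cells and luminal progenitors are the sorted luminal populations of the adult mouse mammary gland, and the comparison set their RNA side by side. It rests on 4 of the 23 RNA-seq libraries of the series, 2 of mature luminal cells and 2 of luminal progenitors, chosen by their sample titles. Both populations came from adult wild-type C57BL6J mice, with no treatment named in the labels. Each library was made with SmartSeq2, a full-length cDNA method, from about 2000 sorted cells. The design text of the series names these pairs as biological replicates, but the labels tie no library to an animal. The sources used here give neither the markers nor the gates of the sort. The other normal libraries, 2 of adult basal cells and 2 of fetal mammary stem cells of embryonic day 18 (fMaSC), shared the model that estimated the spread between replicates. Basal and fetal cells came from the same strain, and the labels call the gland of all 4 populations wild type. Libraries of sorted tumour cells are used at the end.

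The mammary duct has an outer basal layer of contractile cells and an inner luminal layer. Hormone-sensing luminal cells carry the receptors for oestrogen, progesterone and prolactin and pass hormone signals to their neighbours through secreted factors such as amphiregulin. Luminal progenitors are mostly negative for the steroid receptors and give rise in pregnancy to the alveolar cells that make milk. In those cells prolactin acts through its receptor, the kinase JAK2 and the transcription factor STAT5, with the ETS factor ELF5 as a partner.

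Levels are given as RPKM, which scales reads by gene length and library total, so genes can be compared by level. Paired values belong to libraries 1 and 2 of a population, in that order. A log2 fold change is the difference of log2(RPKM + 1), mature luminal cells minus luminal progenitors. Negative values mark genes higher in progenitors, and the scale understates changes of genes near 0. All p-values of single genes are limma's, two-sided, and adjusted over the 12553 genes with at least 1 RPKM in at least 2 of the 8 normal libraries. Genes with an adjusted p under 0.05 are called.

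Promoters of 5 genes that carry the contrast are shown first, picked among those that hold a searched motif. The caseins Csn1s1 and Csn2 and the secreted protein gene Wfdc18 were higher in progenitors, and the growth factor gene Areg and the fibrinogen chain gene Fgb were higher in mature luminal cells. Each sequence is the 200 bases before the RefSeq transcription start in GRCm38.p6, written 5′ to 3′ on the strand of the gene. Capitals mark a match to a motif that was searched on both strands. In Csn1s1 (chr5:87666008-87666207, plus strand) and Csn2 (chr5:87699426-87699625, minus strand) the capitals mark the STAT motif TTCNNNGAA. In Wfdc18 (chr11:83708804-83709003, plus strand) and Areg (chr5:91139399-91139598, plus strand) they mark the TATA box TATAAA. In Fgb (chr3:83049864-83050063, minus strand) they mark the AP-1 motif TGAGTCA, read as its reverse complement.
Csn1s1: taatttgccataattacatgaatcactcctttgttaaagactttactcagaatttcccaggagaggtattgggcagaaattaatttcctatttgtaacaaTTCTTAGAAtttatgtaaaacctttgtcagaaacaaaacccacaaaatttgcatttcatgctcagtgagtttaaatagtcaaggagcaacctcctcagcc
Csn2: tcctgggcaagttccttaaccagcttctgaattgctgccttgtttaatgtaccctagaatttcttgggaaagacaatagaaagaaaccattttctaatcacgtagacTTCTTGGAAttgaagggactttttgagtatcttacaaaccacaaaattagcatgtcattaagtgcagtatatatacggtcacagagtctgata
Wfdc18: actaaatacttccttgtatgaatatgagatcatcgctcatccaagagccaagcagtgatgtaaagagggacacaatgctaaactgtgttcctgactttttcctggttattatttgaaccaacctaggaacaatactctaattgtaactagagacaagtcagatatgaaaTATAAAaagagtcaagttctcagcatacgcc
Areg: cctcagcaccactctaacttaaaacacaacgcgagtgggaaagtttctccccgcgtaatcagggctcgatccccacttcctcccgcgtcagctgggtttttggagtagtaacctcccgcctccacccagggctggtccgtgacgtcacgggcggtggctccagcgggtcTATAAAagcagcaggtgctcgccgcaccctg
Fgb: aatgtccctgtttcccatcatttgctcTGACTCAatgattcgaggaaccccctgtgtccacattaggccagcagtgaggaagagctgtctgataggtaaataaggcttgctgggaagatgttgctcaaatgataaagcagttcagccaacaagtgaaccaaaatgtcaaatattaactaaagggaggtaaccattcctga

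Of the genes called with a log2 difference of at least 2, windows of 300 bases around the start (250 before and 50 after) were at hand for 129 of 177 higher in mature luminal cells and 276 of 388 higher in progenitors. Such windows covered 9336 of the 12553 genes tested. AP-1 stood in 10.1% of the mature luminal windows, 2.54% of the progenitor windows and 3.64% of all. The TATA box stood in 14%, 15.2% and 6.99%. The ETS motif CCGGAA stood in 10.1%, 12.3% and 28.6%, and the GATA motif AGATAA in 10.9%, 7.61% and 6.09%. For STAT the shares were 3.10%, 6.88% and 6.90%, and for the nuclear receptor motif AGGTCA 16.3%, 10.9% and 11.9%. The FOX motif TGTTTAC gave 3.88%, 4.71% and 2.43%, the interferon response motif GAAANNGAA 7.75%, 6.52% and 7.04%, and the SOX motif ACAATGG 1.55%, 2.17% and 1.78%. These shares describe letters in a window and were not tested.

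The populations differed in 22.1% of the genes tested. Of 12553 genes, 1083 (8.63%) were higher in mature luminal cells and 1687 (13.4%) were higher in luminal progenitors. The median log2 fold change over all genes was -0.04. The larger differences lay on the progenitor side: a log2 difference of at least 2 was reached by 177 genes in mature luminal cells and 388 in progenitors, and one of at least 4 by 1 and 47. With 1 library left out the total of 2770 calls was 1210 without mature luminal 1, 954 without mature luminal 2, 1223 without luminal progenitor 1 and 1474 without luminal progenitor 2. Of 155 called genes examined singly, 94 kept their call under every alternative setting and none changed direction. The 2 libraries of a population had a correlation of 0.981 (mature luminal) and 0.979 (progenitors) across genes on the log2 scale, and same-numbered libraries of the 2 populations 0.899 and 0.903.

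**Figure D1:**
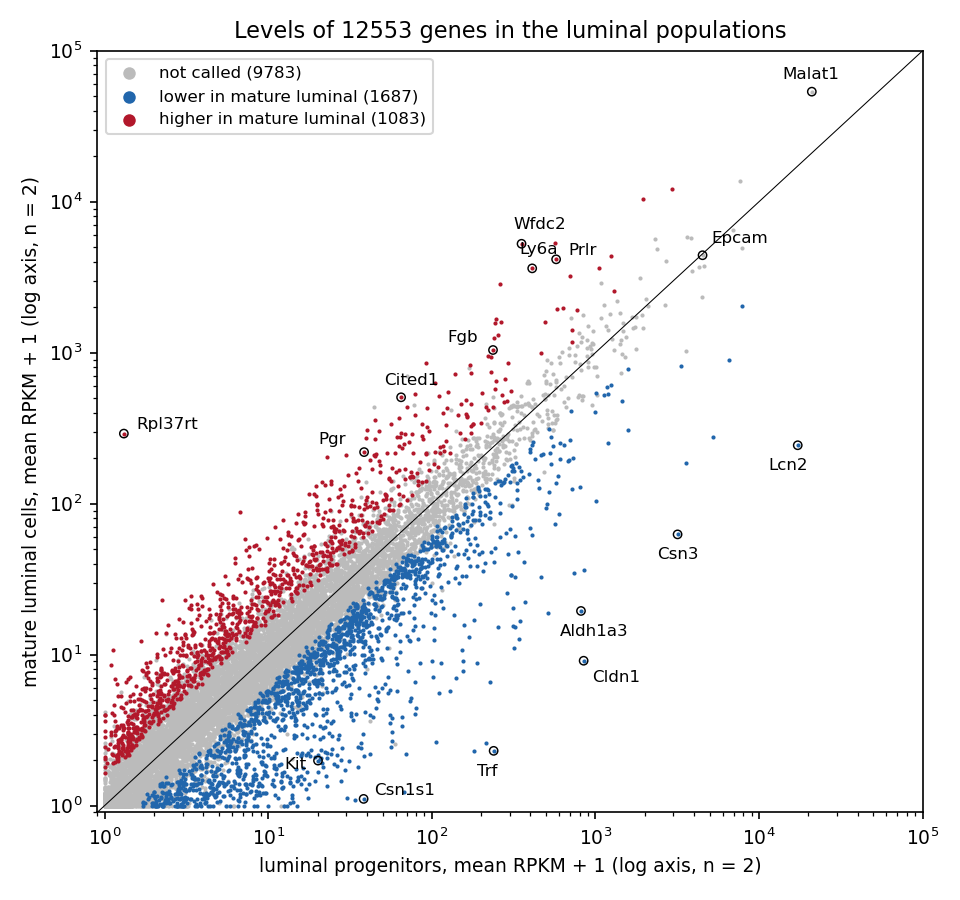
Mean RPKM + 1 of each tested gene in luminal progenitors (horizontal, log axis) against mature luminal cells (vertical, log axis), n = 2 each, with called genes coloured and the line marking equal levels. Lcn2, Csn3, Aldh1a3, Cldn1 and Trf lie far below the line, while Wfdc2, Ly6a and Prlr lie above it by less, with Rpl37rt alone far above.

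Marker genes, which were chosen with earlier results of these data known, went with the labels and are no independent check of them. The summed level of 7 mature luminal markers was 8983 and 8927 RPKM in the mature luminal libraries and 1272 and 1083 RPKM in the progenitor libraries. The summed level of 7 luminal progenitor markers was 97.7 and 145 RPKM against 4026 and 4669 RPKM. All 7 of the first list were called higher and 6 of 7 of the second lower, against 8.63% and 13.4% of all genes tested. The exception was the collagen receptor chain Itga2, at 5.23 and 7.62 against 13.7 and 17.2 RPKM (log2 fold change -1.16, SE 0.40, adjusted p = 0.083). Of 6 markers of luminal cells in general none was called, where 22.1% of all genes tested were. The adhesion protein Epcam was at 4517 and 4320.1 RPKM in mature luminal cells and 3803 and 5227 RPKM in progenitors, and Krt8 at 4379 and 3076 RPKM and 3944 and 5328 RPKM.

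Markers of other cells were low in both populations. The 14 basal and myoepithelial markers summed to 31.8 and 32.0 RPKM in mature luminal cells and 37.4 and 54.0 RPKM in progenitors, against 4492 and 2409 RPKM in basal cells. Of these 14 only Krt17, a basal keratin, was called, against 22.1% of all genes tested. Krt17 was at 0.203 and 0.188 against 5.88 and 6.69 RPKM, and at 873 and 425 RPKM in basal cells. Summed levels over the 2 mature luminal and then the 2 progenitor libraries were 4.83, 7.30, 3.96 and 3.87 RPKM for 12 immune markers and 3.06, 17.4, 8.24 and 12.2 RPKM for 8 endothelial markers. They were 40.7, 17.8, 15.7 and 26.6 RPKM for 10 fibroblast markers and 6.67, 49.4, 17.3 and 30.1 RPKM for 9 fat cell markers, of which the lipid carrier Fabp4 gave most. The sums of 6 red cell markers were 9.40, 2.83, 1.34 and 1.05 RPKM. Those of 7 skin keratinocyte markers were 24.1, 20.1, 25.3 and 30.0 RPKM, and those of 8 Schwann cell and melanocyte markers 37.4, 38.6, 24.3 and 22.4 RPKM. The immune marker Csf1r, the fibroblast marker Col6a3, the red cell marker Hba-a2, the keratinocyte marker Krt15 and the myelin gene Mbp were called higher in mature luminal cells, and the keratinocyte marker Sbsn lower. The level for testing was reached by 4 of the 12 immune, 5 of 8 endothelial, 9 of 10 fibroblast, 7 of 9 fat cell, 2 of 6 red cell, 3 of 7 keratinocyte and 4 of 8 Schwann cell and melanocyte markers, in part through basal or fetal libraries. The immune marker Ptprc and the endothelial marker Kdr did not reach it. The endothelial marker Pecam1 did, at 0.916 and 4.24 against 2.42 and 2.75 RPKM, and the fibroblast marker Dcn stood at 23.2 and 4.13 against 8.7 and 11.1 RPKM. The members named here as called were picked after their values were seen. In limma, leaving out 1 library ended the call of Mbp without any 1 of the 4 libraries (adjusted p = 0.142 to 0.176) and the call of Hba-a2 without any 1 of mature luminal 1, luminal progenitor 1 and luminal progenitor 2 (adjusted p = 0.0854 to 0.176). Calls also missed the threshold with no filter on low values and in a fit of the 4 luminal libraries alone for Hba-a2 and with the replicate block for Mbp.

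Most hormone receptor and hormone-sensing genes were higher in mature luminal cells. Of 22 genes 19 were tested, 13 were higher and 0 lower, against 8.63% and 13.4% of all genes tested. The median log2 fold change was 2.15 against -0.04 over all genes tested. The prolactin receptor Prlr stood at 4013 and 4291 RPKM in mature luminal cells and 664 and 483 RPKM in luminal progenitors (log2 fold change 2.87, SE 0.22, adjusted p = 0.000479). The progesterone receptor Pgr was at 172 and 264 against 46.2 and 28.9 RPKM (2.51, SE 0.31, adjusted p = 0.00234). The oestrogen receptor Esr1 was lower in level, at 20.7 and 14.6 against 5.22 and 2.93 RPKM (1.89, SE 0.33, adjusted p = 0.00774). In each of the 3 receptors both mature luminal libraries lay above both progenitor libraries. Omitting 1 library in limma ended the call of Esr1 without mature luminal 1 (adjusted p = 0.0589). The growth hormone receptor Ghr was not called, at 28 and 33.2 against 37.5 and 16.6 RPKM with the groups overlapping.

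Transcription factors of the same list followed the receptors in part. Foxa1, a pioneer factor for the oestrogen receptor, was at 54.1 and 60.3 against 12 and 9.56 RPKM (2.31, SE 0.39, adjusted p = 0.00674). The co-activator Cited1 was at 618 and 392 against 60.9 and 66.8 RPKM (2.93, SE 0.61, adjusted p = 0.0153). Myb was at 12.4 and 14.1 against 2.58 and 2.32 RPKM (2.05, SE 0.24, adjusted p = 0.00183) and the T-box factor Tbx3 at 15.1 and 13.2 against 4.13 and 2.64 RPKM (1.81, SE 0.36, adjusted p = 0.0127). Greb1, an oestrogen-responsive gene, was at 10.5 and 15.3 against 2.09 and 0.663 RPKM (2.59, SE 0.34, adjusted p = 0.00303). Gata3, a factor of the whole luminal lineage, was not called, at 26 and 23.7 against 37.7 and 30.9 RPKM (log2 fold change -0.44, SE 0.19, adjusted p = 0.138). Xbp1 was not called either, at 77.1 and 58.4 against 76.4 and 89.9 RPKM. The limma fits without 1 library ended the call of Cited1 without any 1 of the 4 libraries (adjusted p = 0.0643 to 0.0969) and the call of Tbx3 without any 1 of mature luminal 1, mature luminal 2 and luminal progenitor 2 (adjusted p = 0.0699 to 0.0797). The same step ended the call of Foxa1 without mature luminal 2 (adjusted p = 0.0574).

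Secreted and surface products of hormone-sensing cells were among the more abundant members. Areg, which encodes amphiregulin, was at 1940.2 and 1414 RPKM in mature luminal cells against 295 and 195 RPKM in progenitors (2.78, SE 0.42, adjusted p = 0.0047). Wnt4, a progesterone-induced ligand, was at 17 and 13.3 against 2.72 and 1.98 RPKM (2.27, SE 0.28, adjusted p = 0.00219). The surface proteins Ly6a (Sca-1) and Prom1 (CD133), both known markers of hormone-sensing cells, were at 3827 and 3407 against 392 and 427 RPKM and at 278 and 498 against 91.3 and 64.3 RPKM. Their log2 fold changes were 3.14 and 2.26, with adjusted p = 0.00118 and 0.00343 in limma. Calca, which encodes calcitonin, was at 3.26 and 13.2 against 0 and 2.1 RPKM and was not called (2.15, SE 0.66, adjusted p = 0.0578). Rankl (Tnfsf11), a paracrine factor induced by progesterone, was under 1 RPKM in all 4 libraries, at 0.465 and 0.328 RPKM and 0 and 0.105 RPKM, and was not tested. Stc2, a secreted glycoprotein, was called at 5.16 and 3.73 against 1.61 and 1.29 RPKM (1.14, SE 0.30, adjusted p = 0.0337). Removal of 1 library from the limma fit ended the call of Stc2 without any 1 of the 4 libraries (adjusted p = 0.0907 to 0.174). The threshold was also missed with a pseudocount of 0.1 and with no filter on low values for Stc2.

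**Figure D2:**
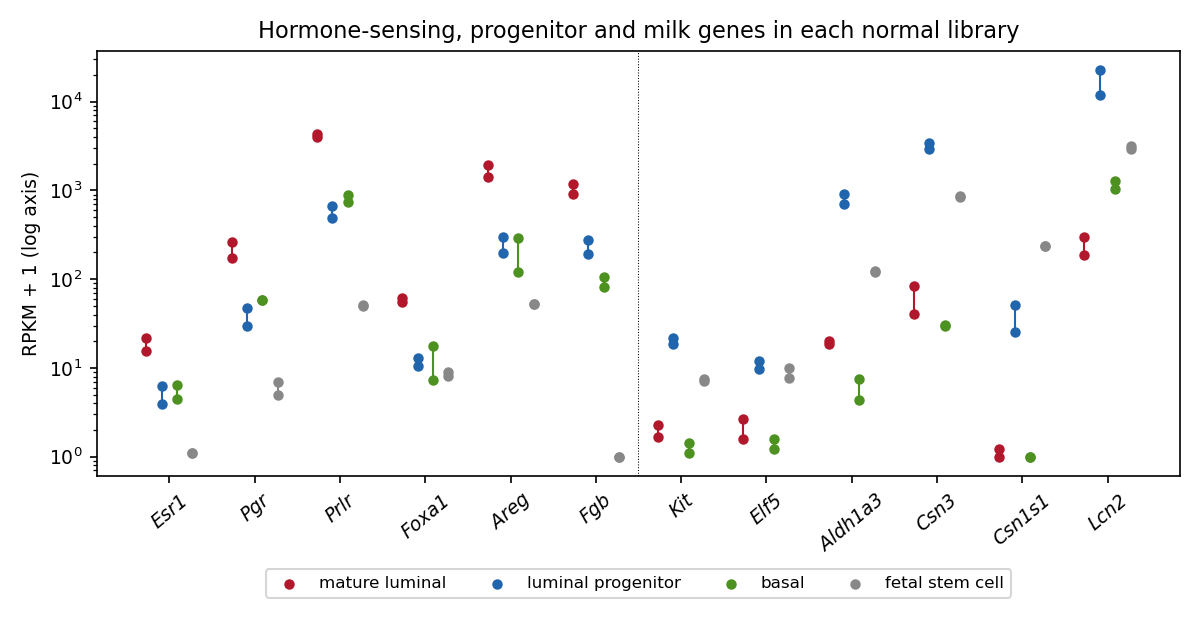
RPKM + 1 (log axis) of 12 genes in each normal library, with a point per library and a line joining the 2 libraries of a population. The 6 genes on the left are highest in mature luminal cells, with progenitor and basal levels close to each other for Esr1, Pgr, Prlr, Foxa1 and Areg, and of the 6 on the right all are higher in progenitors than in mature luminal cells.

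Fibrinogen chain genes, better known from liver as the clot protein of plasma, were also higher in mature luminal cells. Fgb was at 912 and 1169 against 192 and 279 RPKM in progenitors (log2 fold change 2.15, SE 0.25, adjusted p = 0.00177) and Fgg at 1291 and 1346 against 259 and 245 RPKM (2.38, SE 0.25, adjusted p = 0.00142). The third chain gene, Fga, was under 1 RPKM in all 4 libraries, at 0 and 0.105 RPKM and 0.191 and 0.0748 RPKM. Fgb was listed at 0 in both fetal libraries and Fgg at 26.7 and 28.7 RPKM, in basal cells Fgb stood at 104 and 80.6 RPKM and Fgg at 208 and 123 RPKM.

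Luminal progenitor identity genes went the other way. All 18 were tested, 13 were lower and 1 was higher in mature luminal cells, against 13.4% and 8.63% of all genes tested. Their median log2 fold change was -2.53. The receptor tyrosine kinase Kit was at 0.678 and 1.29 RPKM in mature luminal cells and 20.6 and 17.7 RPKM in progenitors (-3.36, SE 0.26, adjusted p = 0.000507). Elf5, the ETS factor of alveolar cells, was at 0.569 and 1.66 against 11 and 8.64 RPKM (-2.39, SE 0.32, adjusted p = 0.00335). Aldh1a3, a retinaldehyde dehydrogenase, was at 17.6 and 19.3 against 712 and 918 RPKM (-5.38, SE 0.28, adjusted p = 0.000215). Cd14, a co-receptor for lipopolysaccharide, was at 34.2 and 31 against 299 and 307 RPKM (-3.18, SE 0.23, adjusted p = 0.000427). In these 4 genes the lower progenitor library lay at least several times above the higher mature luminal library.

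Further progenitor genes covered a wide range of levels. Sox10, a neural crest factor that names the tumour fractions of the series, was at 0.0801 and 0.324 against 4.85 and 11.6 RPKM (-2.85, SE 0.42, adjusted p = 0.00427). The ETS factor Ehf was at 23.7 and 30.9 against 106 and 87.4 RPKM, the tetraspanin Tspan8 at 2.89 and 7.39 against 47 and 41.4 RPKM and the Notch target Hey1 at 0.813 and 0.523 against 22.9 and 9.7 RPKM. Their log2 fold changes were -1.80, -2.98 and -3.27. Plet1, a surface protein, was abundant in both, at 2126 and 1962 against 7128 and 8529.6 RPKM (-1.93, SE 0.23, adjusted p = 0.00215). The growth factor Pdgfb, the integrin Itgb3, the cytokine Lif and the chemokine receptor Cxcr4 completed the 13, with log2 fold changes of -2.97, -3.21, -1.77 and -2.67. Sox9 was higher in mature luminal cells, at 509.7 and 542 against 301 and 231 RPKM (0.99, SE 0.23, adjusted p = 0.0246). Bcl11a, Gabrp, Id4 and Itga2 were not called, and the first 3 were under 2 RPKM in all 4 libraries. With 1 library fewer, limma lost the calls of Itgb3 and Sox9 without any 1 of the 4 libraries (adjusted p = 0.0539 to 0.144) and the call of Lif without any 1 of mature luminal 1, mature luminal 2 and luminal progenitor 1 (adjusted p = 0.103 to 0.151). Such a fit also lost the call of Cxcr4 without either of mature luminal 1 and mature luminal 2 (adjusted p = 0.0548 to 0.0633). Other settings missed the threshold: with no filter on low values for Itgb3 and Lif and in a fit of the 4 luminal libraries alone for Lif.

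Milk protein and milk secretion genes had the lowest median of the 25 gene lists. Of 20 genes 17 were tested, and 14 were lower and 0 higher in mature luminal cells, against 13.4% and 8.63% of all genes tested. A fit of the 4 luminal libraries alone called 1 higher. The median log2 fold change was -3.11. Among those tested, 9 stayed under 1 RPKM in both mature luminal libraries, so they entered the test through other libraries. The lipase gene Cel reached 1 RPKM only in progenitors, so it could differ only in that direction. Kappa-casein (Csn3) was at 39.3 and 83.8 RPKM in mature luminal cells and 2966 and 3388 RPKM in progenitors (-5.76, SE 0.32, adjusted p = 0.000216). The alpha casein Csn1s1 was at 0 and 0.213 against 24.2 and 50.4 RPKM (-5.03, SE 0.34, adjusted p = 0.000343), and beta-casein (Csn2) at 0 and 0.173 against 7.02 and 58.4 RPKM (-4.33, SE 0.78, adjusted p = 0.00932). The 2 progenitor libraries differed by several times in Csn2, and both lay above the mature luminal libraries. Csn1s2a was listed at 0 in both mature luminal libraries and at 15.7 and 12.1 RPKM in progenitors (adjusted p = 0.00124, limma). The whey protein gene Wap and the casein Csn1s2b were listed at 0 in all 4 libraries and were not tested. The lactoperoxidase gene Lpo was tested through basal cells and was listed at 0 in the same 4 libraries. In limma, leaving out 1 library ended the call of Csn2 without either of mature luminal 1 and mature luminal 2 (adjusted p = 0.0617 to 0.0625). Calls also missed the threshold in a fit of the 4 luminal libraries alone for Csn2.

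Genes of the milk fat globule and of secretion moved with the caseins. Plin2, which coats lipid droplets, was at 3.53 and 2.5 against 93.7 and 62.6 RPKM (-4.29, SE 0.26, adjusted p = 0.000259). Btn1a1 and Xdh, which join in the envelope of the fat globule, were at 0.759 and 0.863 against 47 and 21.3 RPKM (-4.18, SE 0.36, adjusted p = 0.000696) and at 0.388 and 0.573 against 9.26 and 10.2 RPKM (-2.86, SE 0.22, adjusted p = 0.000528). The globule glycoprotein Mfge8 was at 14.5 and 13.8 against 277 and 230.0 RPKM (-4.06, SE 0.17, adjusted p = 9.2e-05) and the mucin Muc1 at 2.29 and 3.76 against 35.5 and 31.2 RPKM (-3.11, SE 0.25, adjusted p = 0.000608). Osteopontin (Spp1) was at 0 and 0.127 against 19.6 and 6.54 RPKM (-3.55, SE 0.77, adjusted p = 0.0178). Lalba, the lactose synthase subunit, was listed at 0 in both mature luminal libraries and at 3.41 and 0.701 RPKM in progenitors. Folr1, Cidea and Cel were also called lower, with log2 fold changes of -1.21, -2.30 and -1.69. The phosphate carrier Slc34a2 and the calcium pump Atp2c2 were not called, at 1.62 and 1.46 against 1.32 and 0.75 RPKM and at 3.68 and 3.83 against 1.14 and 0.629 RPKM. Of the 14 calls, 8 remained without mature luminal 1, 8 without mature luminal 2, 10 without luminal progenitor 1 and 13 without luminal progenitor 2. Omitting 1 library in limma ended the call of Cidea without any 1 of the 4 libraries (adjusted p = 0.0961 to 0.124) and the calls of Folr1, Lalba and Spp1 without any 1 of mature luminal 1, mature luminal 2 and luminal progenitor 1 (adjusted p = 0.0798 to 0.215). Leaving a library out also ended the call of Cel without either of mature luminal 1 and mature luminal 2 (adjusted p = 0.0535 to 0.0659). The threshold was also missed in a fit of the 4 luminal libraries alone for Cel, Folr1 and Lalba, with a pseudocount of 0.1 for Cidea and Folr1 and with no filter on low values for Cidea, Folr1 and Lalba.

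Prolactin pathway genes went both ways. Among upstream members higher in mature luminal cells besides Prlr, the kinase Jak2 was at 94.8 and 115 against 32.6 and 30.6 RPKM (1.70, SE 0.18, adjusted p = 0.00152). Stat5a was at 62.6 and 57.1 against 14 and 11.4 RPKM (2.16, SE 0.32, adjusted p = 0.00431) and Stat5b at 17.8 and 20.4 against 8.87 and 9.31 RPKM (0.99, SE 0.22, adjusted p = 0.0199). The feedback inhibitors Cish and Socs2, both STAT5 targets, were lower, at 8.27 and 5.35 against 29.4 and 20.3 RPKM (-1.73, SE 0.36, adjusted p = 0.0157) and 17.7 and 7.09 against 33.3 and 34.6 RPKM (-1.51, SE 0.36, adjusted p = 0.024). The downstream genes Elf5, Csn2 and cyclin D1 (Ccnd1) and the receptor Igf1r were lower too, Igf1r at 0.635 and 0.769 against 9.71 and 7.02 RPKM (-2.45, SE 0.24, adjusted p = 0.00121). Ccnd1 was at 14.7 and 10.7 against 48.6 and 45.7 RPKM (-1.83, SE 0.34, adjusted p = 0.0106). Of 13 genes tested 4 were higher and 6 lower, against 8.63% and 13.4% of all genes tested, and the median was 0.01. The median turned below 0 with a minimum of 5 RPKM (-1.51) and with 1 library left out (-0.06 to -0.02). Socs1, Socs3 and Igf2 were not called. Jak2, Stat5a, Stat5b, Cish and Socs2 were picked after their values were seen. The 6 lower genes were 2 without mature luminal 2 and 3 without luminal progenitor 1. The limma fits without 1 library ended the call of Stat5b without any 1 of the 4 libraries (adjusted p = 0.0739 to 0.124) and the calls of Ccnd1 and Socs2 without any 1 of mature luminal 2, luminal progenitor 1 and luminal progenitor 2 (adjusted p = 0.0538 to 0.109). The same step ended the call of Cish without either of mature luminal 2 and luminal progenitor 1 (adjusted p = 0.104 to 0.106). Other settings missed the threshold: with no filter on low values and in a fit of the 4 luminal libraries alone for Socs2.

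Secreted defence genes were lower in mature luminal cells for 10 of the 14 tested, of 21 listed, against 13.4% of all genes tested. Their median was -1.98. Lipocalin 2 (Lcn2), which binds bacterial siderophores, had the highest level of the list, at 187 and 298 RPKM in mature luminal cells and 11786 and 22699 RPKM in progenitors (-6.11, SE 0.37, adjusted p = 0.000259). Complement C3 was at 3.94 and 16.2 against 252 and 386 RPKM (-5.08, SE 0.57, adjusted p = 0.00166). The whey acidic protein family members Wfdc18 and Slpi were at 135 and 231 against 2145 and 5055 RPKM (-4.21, SE 0.63, adjusted p = 0.00465) and 2.35 and 4.45 against 55.7 and 102 RPKM (-4.16, SE 0.34, adjusted p = 0.000608). None was higher. With the replicate block 2 were higher, and after quantile normalization or in a fit of the 4 luminal libraries alone 1 was. The defensin Defb1 had its largest value in a mature luminal library but was uneven, at 806 and 60.6 against 69 and 18.1 RPKM (2.61, SE 1.24, adjusted p = 0.18). Saa1, haptoglobin (Hp) and galectin 3 (Lgals3) were not called, the last pair at 25.4 and 16.7 against 5.83 and 5.42 RPKM and 5027 and 4719 against 1599 and 3147 RPKM. For Hp and Lgals3 both mature luminal libraries lay above both progenitor libraries. Cfb reached 1 RPKM only in progenitors.

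The genes with the largest differences either way lay partly outside these lists. Lowest in mature luminal cells were the iron carrier Trf, at 0.889 and 1.72 against 269.9 and 205 RPKM (-6.71, SE 0.25, adjusted p = 9.1e-05), and the tight junction protein Cldn1, at 4.49 and 11.7 against 822 and 869 RPKM (-6.66, SE 0.59, adjusted p = 0.000818). Carbonic anhydrase Car2 was at 0.912 and 2.27 against 241 and 185 RPKM (-6.41, SE 0.36, adjusted p = 0.000216) and the chitinase-like protein Chil1 at 1.09 and 1.5 against 196 and 166 RPKM (-6.31, SE 0.26, adjusted p = 9.2e-05). The kallikrein Klk10, the carbonyl reductase Cbr2, the fatty acid carrier Fabp5, the cytochrome Cyp1b1, the phosphatase Ptprz1 and the matricellular protein Cyr61 followed, with log2 fold changes of -5.82, -5.37, -5.08, -5.01, -4.76 and -4.73. Klk10 reached 1 RPKM only in progenitors, so it could only be lower.

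Highest in mature luminal cells was Rpl37rt, a retrotransposed copy of a ribosomal protein gene, at 256 and 324 against 0.458 and 0.161 RPKM (7.80, SE 0.33, adjusted p = 9.2e-05). Reads of such a copy can be shared with its parent Rpl37, at 350.2 and 435 against 216 and 321 RPKM, so its level is uncertain, and its 2 mature luminal libraries were needed for it to be tested. Wfdc2 (HE4), a whey acidic protein family member, was at 4972 and 5553 against 348 and 356 RPKM (3.89, SE 0.35, adjusted p = 0.000818). AW112010 was at 2477 and 3200.5 against 255 and 261 RPKM (3.44, SE 0.31, adjusted p = 0.000877) and Ly6d at 4725 and 5892 against 567 and 564 RPKM (3.22, SE 0.38, adjusted p = 0.00194). The sodium pump regulator Fxyd2 was at 679 and 1022 against 82.1 and 100.4 RPKM (3.18, SE 0.51, adjusted p = 0.00572). The kinesin Kif5c, the amino acid carrier Slc7a2 and the mechanosensitive channel Piezo2 had log2 fold changes of 3.17, 2.96 and 2.94. Fam25c, Scarf2, the histone gene Hist2h2aa1 and the neuropeptide Nmu had 3.71, 3.62, 2.98 and 2.93. Hist2h2aa1 has near-identical copies, so its level is uncertain too. Removal of 1 library from the limma fit ended the call of Hist2h2aa1 without any 1 of the 4 libraries (adjusted p = 0.0504 to 0.083) and the call of Nmu without any 1 of mature luminal 1, mature luminal 2 and luminal progenitor 2 (adjusted p = 0.0538 to 0.0844). Such a fit also lost the call of Scarf2 without any 1 of mature luminal 1, mature luminal 2 and luminal progenitor 1 (adjusted p = 0.0751 to 0.0783) and the call of Fxyd2 without mature luminal 2 (adjusted p = 0.0532). Calls also missed the threshold with a pseudocount of 0.1 for Fxyd2 and in a fit of the 4 luminal libraries alone for Nmu.

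**Figure D3:**
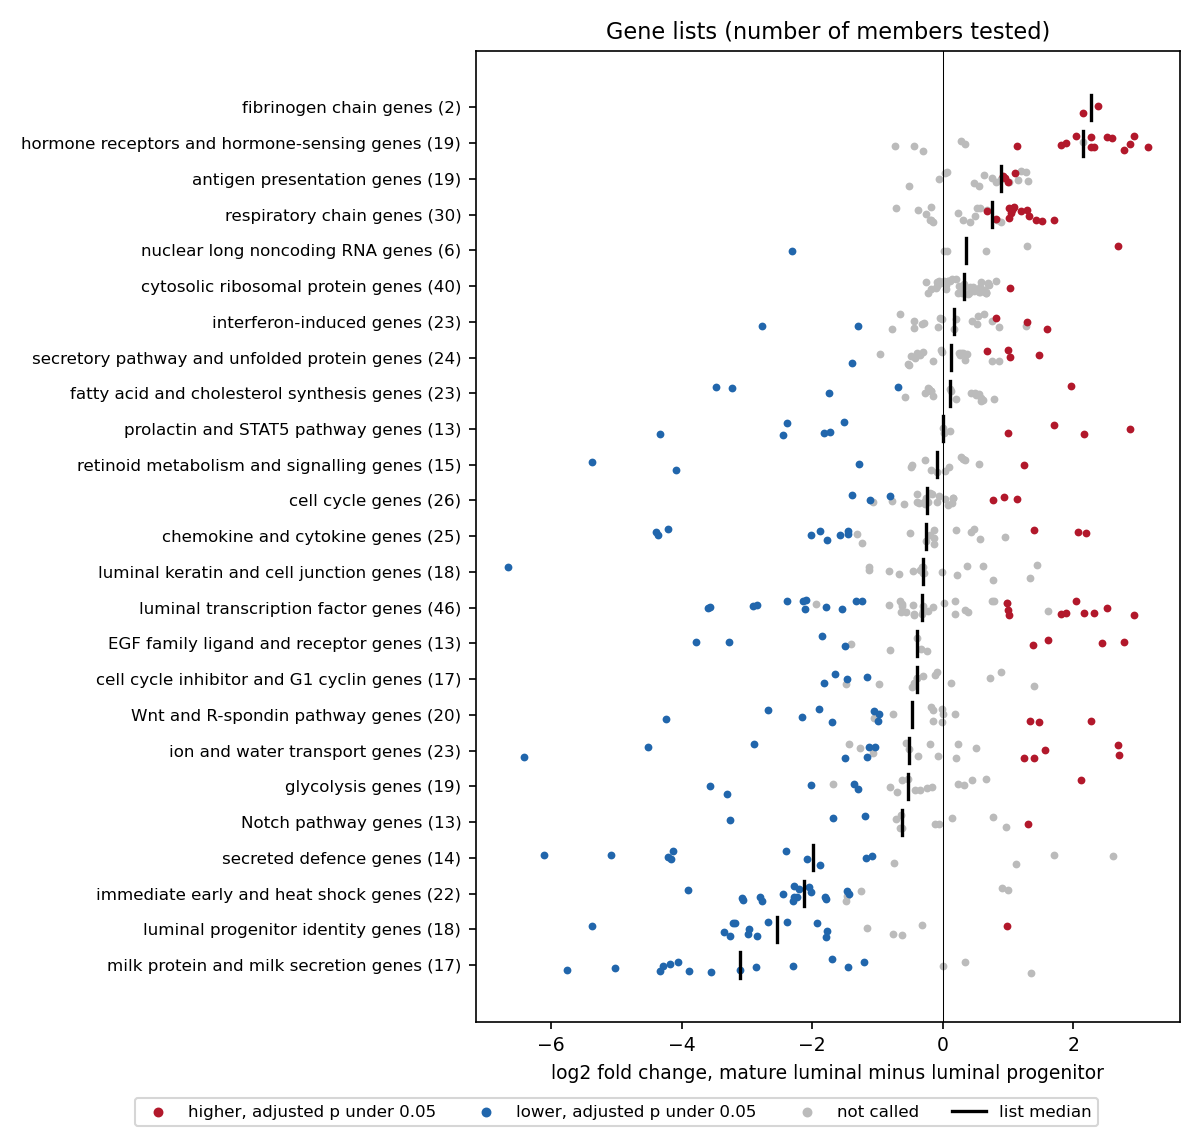
Log2 fold change (mature luminal minus luminal progenitor) of each tested member of 25 gene lists, with called genes coloured, the black bar at the list median and the number of members tested in parentheses. Fibrinogen and hormone-sensing genes have medians above 2, while the defence, immediate early, progenitor and milk lists have medians of -1.98 or lower.

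In mature luminal cells 17 of 22 heat shock and immediate early genes were lower and 0 higher, against 13.4% and 8.63% over all genes. Their median was -2.13, and with the replicate block 1 was higher. These genes respond within minutes to growth factors and stress, cell dissociation included. Egr1 was at 35.1 and 45.6 against 496 and 234 RPKM (-3.06, SE 0.52, adjusted p = 0.00738), Myc at 2.27 and 1.47 against 28.8 and 18 RPKM (-3.07, SE 0.31, adjusted p = 0.00124) and the AP-1 subunit Fosl1 at 1.35 and 0.585 against 42.2 and 18.4 RPKM (-3.91, SE 0.86, adjusted p = 0.0191). The heat shock gene Hspa1a, which has a near-identical copy in Hspa1b, was at 16 and 18.3 against 186 and 85.1 RPKM (-2.81, SE 0.38, adjusted p = 0.00346). The AP-1 subunits Fos and Jun, picked after their values were seen, were at 337 and 278 against 2123 and 1043 RPKM (-2.28, SE 0.44, adjusted p = 0.0114) and 45.7 and 29.4 against 265 and 112 RPKM (-2.20, SE 0.44, adjusted p = 0.0131). Fosb, Junb, Jund, Atf3 and Klf4 were not called. For Egr1, Fosl1, Fos and Jun luminal progenitor 1 was above luminal progenitor 2, and both lay above the mature luminal libraries. The part of cell handling before lysis in the result was not tested. Without mature luminal 1 the calls were 11, without mature luminal 2 they were 10, and without luminal progenitor 1 they were 11. With 1 library fewer, limma lost the call of Fosl1 without any 1 of the 4 libraries (adjusted p = 0.0563 to 0.124) and the call of Fos without any 1 of mature luminal 1, mature luminal 2 and luminal progenitor 1 (adjusted p = 0.0551 to 0.0814). Leaving a library out also ended the call of Egr1 without either of mature luminal 1 and luminal progenitor 1 (adjusted p = 0.0558 to 0.056) and the call of Jun without either of mature luminal 2 and luminal progenitor 1 (adjusted p = 0.0633 to 0.0961). The threshold was also missed in a fit of the 4 luminal libraries alone for Jun.

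EGF family genes went both ways, 4 higher and 4 lower of 13, against 8.63% and 13.4% of all genes tested. The ligands amphiregulin (Areg) and epigen (Epgn) were higher in mature luminal cells, Epgn at 838 and 827 against 241 and 97.7 RPKM (2.43, SE 0.46, adjusted p = 0.011). The receptor Egfr was lower, at 0.166 and 0.649 against 13.7 and 11.3 RPKM (-3.28, SE 0.38, adjusted p = 0.00183), and so was the ligand Hbegf, at 4.17 and 3.74 against 98.9 and 45.6 RPKM (-3.79, SE 0.47, adjusted p = 0.00246). For Egfr and Hbegf both progenitor libraries lay well above both mature luminal libraries. The list of 13 had 4 higher, with the ligands Btc and Nrg4 as the other two, and 4 lower, with the ligand Nrg1 (-1.49) and the EGF receptor inhibitor Errfi1 (-1.86) as the other two. The receptors Erbb2 and Erbb3 were not called. The 4 higher genes were 1 without mature luminal 1 and 1 without mature luminal 2. Nrg1 and Errfi1 were picked after their values were seen. In limma, leaving out 1 library ended the call of Btc without any 1 of mature luminal 1, mature luminal 2 and luminal progenitor 2 (adjusted p = 0.0893 to 0.168) and the call of Nrg4 without any 1 of mature luminal 1, mature luminal 2 and luminal progenitor 1 (adjusted p = 0.0544 to 0.0756). The same step ended the call of Epgn without either of mature luminal 1 and mature luminal 2 (adjusted p = 0.0654 to 0.0716) and the call of Nrg1 without either of mature luminal 1 and luminal progenitor 1 (adjusted p = 0.067 to 0.0683). Other settings missed the threshold: with a pseudocount of 0.1 for Btc and Nrg4 and with no filter on low values and in a fit of the 4 luminal libraries alone for Btc.

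Wnt and R-spondin pathway genes were higher for 3 and lower for 8 of 20 tested, against 8.63% and 13.4% of all genes tested. Their median was -0.47. Among ligands, Wnt4 (above), Wnt5a and Wnt7b were higher and Wnt5b was lower, at 1.49 and 2.65 against 63.4 and 49.2 RPKM (-4.24, SE 0.26, adjusted p = 0.000259). Wnt5a was at 47.2 and 55.8 against 19.1 and 16.7 RPKM (1.47, SE 0.23, adjusted p = 0.00513). The enhancer of Wnt signals Rspo1 was at 0 and 0.254 against 3.25 and 11.1 RPKM (-2.68, SE 0.44, adjusted p = 0.00662) and its receptor Lgr4 at 7.21 and 7.52 against 49.7 and 26.2 RPKM (-2.15, SE 0.33, adjusted p = 0.0049). Rspo1 reached 1 RPKM only in progenitors, so it could differ only in that direction. Wnt5a and Wnt7b were picked after their values were seen. The 8 lower genes were 5 without mature luminal 1, without mature luminal 2 or without luminal progenitor 1. Omitting 1 library in limma ended the call of Wnt7b without any 1 of the 4 libraries (adjusted p = 0.14 to 0.206) and the call of Rspo1 without mature luminal 1 (adjusted p = 0.0535). Calls also missed the threshold in a fit of the 4 luminal libraries alone for Rspo1 and with a pseudocount of 0.1 and with no filter on low values for Wnt7b.

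Notch pathway genes were lower for 3 and higher for 1 of 13 tested, against 13.4% and 8.63% of all genes tested. Their median was -0.62. The targets Hey1 and Nrarp were lower, Nrarp at 1.51 and 1.63 against 9.25 and 5.59 RPKM (-1.68, SE 0.27, adjusted p = 0.00607), and so was the ligand Dll1, at 0.191 and 0.223 against 1.45 and 2.1 RPKM (-1.19, SE 0.22, adjusted p = 0.00932). The ligand Jag1 was higher, at 10.5 and 11.3 against 5.15 and 2.76 RPKM (1.31, SE 0.30, adjusted p = 0.0208). The target Hes1 was not called, at 37.2 and 34.2 against 53.1 and 59.4 RPKM. The limma fits without 1 library ended the call of Jag1 without any 1 of mature luminal 1, mature luminal 2 and luminal progenitor 2 (adjusted p = 0.0865 to 0.114) and the call of Dll1 without either of mature luminal 1 and mature luminal 2 (adjusted p = 0.0536 to 0.0551). The threshold was also missed in a fit of the 4 luminal libraries alone for Jag1.

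Chemokine and cytokine genes were lower for 9 and higher for 3 of 25 tested, against 13.4% and 8.63% of all genes tested. The neutrophil attractants Cxcl1 and Cxcl2 were at 245 and 309 against 6232 and 4203 RPKM (-4.21, SE 0.26, adjusted p = 0.000259) and 27.6 and 40.3 against 939 and 529 RPKM (-4.36, SE 0.30, adjusted p = 0.000357). The granulocyte factor Csf3 was at 15.5 and 12.9 against 366 and 275 RPKM (-4.40, SE 0.22, adjusted p = 0.000214). In all 3 the groups were far apart. Cxcl15, Cxcl17 and Il18 were higher, Cxcl17 at 78.3 and 65.7 against 19.6 and 11.3 RPKM (2.19, SE 0.62, adjusted p = 0.0437). Each fit without 1 library called 1 gene of the list higher in place of 3. Removal of 1 library from the limma fit ended the call of Cxcl17 without any 1 of the 4 libraries (adjusted p = 0.109 to 0.202). Other settings missed the threshold: with a pseudocount of 0.1 and with no filter on low values for Cxcl17.

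Of 23 interferon-induced genes 3 were higher and 2 lower, near the share of all genes tested (8.63% and 13.4%), with a median of 0.18. The antiviral membrane protein Ifitm3 was at 428 and 547 against 167 and 154 RPKM (1.59, SE 0.22, adjusted p = 0.00362), while the chemokine Cxcl10 was at 6.01 and 9.25 against 79.9 and 40.2 RPKM (-2.77, SE 0.34, adjusted p = 0.00237). Of 19 antigen presentation genes 4 were higher and 0 lower, against 8.63% and 13.4% of all genes tested, with a median of 0.89. H2-K1 was at 1443 and 1384 against 628 and 803 RPKM (0.99, SE 0.20, adjusted p = 0.0126), and reads of such class I genes can be shared between near-identical relatives. Tap1, H2-Q4 and Tapbp were the other 3, with log2 fold changes of 0.96, 1.11 and 0.91. The 3 higher interferon-induced genes were 1 in each fit without 1 library. The 4 antigen presentation calls fell to 0 without mature luminal 1 or 2 and to 1 without either progenitor library. With 1 library fewer, limma lost the calls of H2-Q4 and Tap1 without any 1 of the 4 libraries (adjusted p = 0.102 to 0.224) and the call of H2-K1 without any 1 of mature luminal 1, mature luminal 2 and luminal progenitor 1 (adjusted p = 0.0647 to 0.0681). Such a fit also lost the call of Tapbp without any 1 of mature luminal 1, mature luminal 2 and luminal progenitor 2 (adjusted p = 0.0722 to 0.0812). Calls also missed the threshold in a fit of the 4 luminal libraries alone for H2-K1, with a pseudocount of 0.1 and with no filter on low values for H2-Q4 and Tap1 and with the replicate block for Tap1.

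Among 46 luminal transcription factor genes tested, 10 were higher and 12 lower in mature luminal cells, against 8.63% and 13.4% of all genes tested. The list median was -0.32. Of the called members, Esr1, Pgr, Foxa1, Tbx3, Cited1 and Myb are also on the hormone-sensing list and Elf5, Ehf, Sox9 and Sox10 on the progenitor list. The largest differences outside those were Cebpd, at 29.8 and 33 against 214 and 709 RPKM (-3.59, SE 0.59, adjusted p = 0.00621), and the differentiation inhibitor Id1, at 1.34 and 2.65 against 52.4 and 21.2 RPKM (-3.56, SE 0.47, adjusted p = 0.00303). The AP-2 factor Tfap2c was at 1.48 and 2.08 against 18.7 and 20.9 RPKM (-2.91, SE 0.27, adjusted p = 0.000943). The AP-2 factors Tfap2a and Tfap2b were not called, at 5.86 and 7.41 against 2.32 and 3.44 RPKM and 21 and 16.8 against 16.4 and 12.1 RPKM. Grhl1, Grhl2, Stat3 and Stat6 were not called either. The 10 higher genes were 5 without mature luminal 1, 4 without mature luminal 2 and 6 without luminal progenitor 2.

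Genes of keratins and junctions differed in 1 of 18, Cldn1 (above), against 22.1% of all genes tested. Krt19 and Krt7 had higher means in mature luminal cells but were not called, Krt19 at 3126 and 2643 against 862 and 1302 RPKM (1.44, SE 0.49, adjusted p = 0.0782) and Krt7 at 1997 and 1390.0 against 448 and 974 RPKM (1.33, SE 0.52, adjusted p = 0.113). Claudins 3, 4, 7 and 8 were not called, nor were Cdh1, Tjp1 and Ocln. Cldn4 was at 2209 and 1472 against 1238 and 1580.0 RPKM with the groups overlapping.

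Ion and water transport genes went both ways, 5 higher and 7 lower of 23, against 8.63% and 13.4% of all genes tested. The sodium, potassium and chloride carrier Slc12a2 was at 1407 and 1758 against 261 and 224 RPKM (2.70, SE 0.19, adjusted p = 0.000396), and the iodide carrier Slc5a5, picked after its values were seen, at 26 and 21 against 3.67 and 2.06 RPKM (2.69, SE 0.30, adjusted p = 0.00175). The potassium channel genes Kcnn4 and Kcne3 were lower, at 1.3 and 1.57 against 47.8 and 62.6 RPKM (-4.52, SE 0.58, adjusted p = 0.00272) and 0.778 and 0.492 against 9.74 and 12.7 RPKM (-2.90, SE 0.32, adjusted p = 0.00163). Like Rspo1, Kcne3 entered the test through progenitors alone and could only be lower. The 5 higher genes were 2 without either mature luminal library and 3 without either progenitor library. The 7 lower genes were 4 without mature luminal 1 or luminal progenitor 2 and 3 without mature luminal 2.

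Metabolic genes were called in both directions, where 8.63% of all genes tested were higher and 13.4% lower. Of 15 retinoid genes 3 were lower, among them Aldh1a3 and the binding protein Crabp2, at 3.3 and 2.46 against 63.5 and 65.8 RPKM (-4.09, SE 0.30, adjusted p = 0.000479), while the retinol dehydrogenase Rdh10 was higher (1.24). Of 23 fatty acid and cholesterol genes 4 were lower and 1 higher. The higher genes were 4 after quantile normalization, 3 under median-of-ratios factors and 2 with a pseudocount of 0.1. In a fit of the 4 luminal libraries alone 2 were higher and 2 lower. The desaturase paralogs went opposite ways: Scd1 was at 21.4 and 28.1 against 234 and 340.1 RPKM (-3.47, SE 0.33, adjusted p = 0.00103) and Scd2 at 34.3 and 49.5 against 10.1 and 9.55 RPKM (1.96, SE 0.27, adjusted p = 0.00346). Fads1, another desaturase, was at 1.37 and 2.15 against 33.5 and 18.2 RPKM (-3.24, SE 0.30, adjusted p = 0.000979). Of 19 glycolysis genes 5 were lower and 1 higher. Lactate dehydrogenase B (Ldhb) was at 0.185 and 0.166 against 13.2 and 12.7 RPKM (-3.57, SE 0.31, adjusted p = 0.000759), the glucose carrier Slc2a1 at 23.6 and 24.1 against 125 and 80.4 RPKM (-2.02, SE 0.24, adjusted p = 0.00215) and the phosphofructokinase Pfkp at 10.0 and 5.62 against 86.7 and 80.7 RPKM (-3.31, SE 0.30, adjusted p = 0.000889). Hexokinase 2 (Hk2) was higher, at 115 and 109 against 35.9 and 17.6 RPKM (2.11, SE 0.31, adjusted p = 0.00443). The lower fatty acid genes were 2 without either mature luminal library, and the lower glycolysis genes were 3 without mature luminal 2 or luminal progenitor 2. In limma, leaving out 1 library ended the call of Rdh10 without any 1 of the 4 libraries (adjusted p = 0.0568 to 0.122).

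Respiratory chain genes were higher in mature luminal cells for 14 of 30 and lower for 0, against 8.63% and 13.4% of all genes tested. Their median was 0.75. Cytochrome oxidase subunits led: Cox8a was at 1471 and 1710.0 against 444 and 535 RPKM (1.70, SE 0.25, adjusted p = 0.00426) and Cox6c at 689 and 1017 against 265 and 318 RPKM (1.52, SE 0.27, adjusted p = 0.00794). Cox6a1 and Cox4i1 had log2 fold changes of 1.43 and 1.32. Larger subunits such as Atp5a1 (-0.18), Atp5b (-0.20) and Uqcrc1 (-0.15) were not called. Transcript length moved with the result. The 14 called genes had longest coding transcripts of 371 to 955 bases (median 615.5), and the 16 others had a median of 1657 bases. Of the 625 tested genes shorter than 1000 bases 20.2% were higher and 7.68% lower, with a median log2 fold change of 0.29. Among the 10843 longer genes the shares were 8.11% higher and 14.2% lower, and the median was -0.06. The part of length in the respiratory chain result was not tested. The 14 calls were 8 without mature luminal 1, 5 without mature luminal 2, 6 without luminal progenitor 1 and 8 without luminal progenitor 2. Omitting 1 library in limma ended the call of Cox6c without either of mature luminal 2 and luminal progenitor 1 (adjusted p = 0.0561 to 0.057).

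The remaining lists hold ribosomal, secretory and noncoding RNA genes. Beside them, 8.63% of all genes tested were higher and 13.4% lower. Of 40 cytosolic ribosomal protein genes 1, Rps28, was higher (1.04), with a list median of 0.32. Of 24 secretory pathway and unfolded protein genes 4 were higher and 1, Atf4, was lower (-1.39), and the 4 were 1 in each fit without 1 library. Creb3l2 had the largest rise, at 7.45 and 7.27 against 2.12 and 1.9 RPKM (1.47, SE 0.21, adjusted p = 0.00404). Of 6 nuclear noncoding RNA genes Snhg11 was higher and Mir17hg lower, at 30.2 and 88.7 against 266 and 258 RPKM. Malat1 took 6.35% and 11.5% of the summed RPKM in mature luminal cells and 3.50% and 3.93% in progenitors, and was not called. The limma fits without 1 library ended the call of Mir17hg without any 1 of the 4 libraries (adjusted p = 0.0526 to 0.216) and the call of Rps28 without any 1 of mature luminal 1, mature luminal 2 and luminal progenitor 1 (adjusted p = 0.0513 to 0.109). Leaving a library out also ended the call of Atf4 without mature luminal 2 (adjusted p = 0.057). The threshold was also missed with no filter on low values, after quantile normalization and under median-of-ratios factors for Mir17hg and in a fit of the 4 luminal libraries alone for Mir17hg and Rps28.

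Proliferation genes were low in both populations. Of 26 cell cycle genes tested 3 were higher and 3 lower, near the share of all genes tested (8.63% and 13.4%). Of the 26, 16 stayed under 1 RPKM in both mature luminal libraries and 12 in both progenitor libraries. Mki67, present in cycling cells, was at 0.314 and 0.445 against 0.747 and 0.559 RPKM, and Top2a at 0.608 and 0.836 against 0.547 and 0.524 RPKM. The mitotic kinase Aurka was called higher (1.14) and the cyclin Ccnb2 lower (-1.39). Without luminal progenitor 1 or 2, or mature luminal 1, no gene of the list was higher, without mature luminal 2 there was 1, and no gene was lower in any of the 4. Of 17 cell cycle inhibitor and G1 cyclin genes 4 were lower and 0 higher, against 13.4% and 8.63% of all genes tested. After quantile normalization and under median-of-ratios factors 1 was higher. The inhibitor Cdkn1a was at 55.2 and 36.2 against 153 and 133 RPKM (-1.65, SE 0.38, adjusted p = 0.022) and the retinoblastoma gene Rb1 at 5.48 and 5.99 against 22.9 and 13.6 RPKM (-1.47, SE 0.28, adjusted p = 0.0109). These 4 were 1, 0, 0 and 1 without mature luminal 1, mature luminal 2, luminal progenitor 1 and luminal progenitor 2. Removal of 1 library from the limma fit ended the calls of Ccnb2 and Cdkn1a without any 1 of the 4 libraries (adjusted p = 0.0546 to 0.143) and the call of Aurka without any 1 of mature luminal 1, luminal progenitor 1 and luminal progenitor 2 (adjusted p = 0.0763 to 0.117). The same step ended the call of Rb1 without any 1 of mature luminal 1, mature luminal 2 and luminal progenitor 1 (adjusted p = 0.056 to 0.0684). Other settings missed the threshold: in a fit of the 4 luminal libraries alone for Aurka and with no filter on low values for Ccnb2.

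The populations differed in how much was left of the genes of the other. Among called genes with a mean of at least 50 RPKM in their higher population, a level chosen after values were seen, 290 were higher in mature luminal cells. Their median level in progenitors was 35.8% of that in mature luminal cells. It was under 5% in 1 gene, Rpl37rt, and under 10% in 4, with Fam25c at 6.58% next. Of 457 genes higher in progenitors, 33 were under 5% in mature luminal cells and 58 under 10%, with a median of 41.0%. The lowest was Klk10 at 0.330%, followed by Trf, Chil1 and Car2. The 7 mature luminal markers stood in progenitors at 11.3% to 23.2% of their mature luminal level. Of the progenitor markers, 6 stood in mature luminal cells at 1.94% to 11.4% of their progenitor level and Itga2 at 41.6%. In bulk libraries, a smaller share of cells that express a gene and less RNA of it per cell cannot be told apart. Whether progenitor libraries held RNA of mature luminal cells was not tested.

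**Figure D4:**
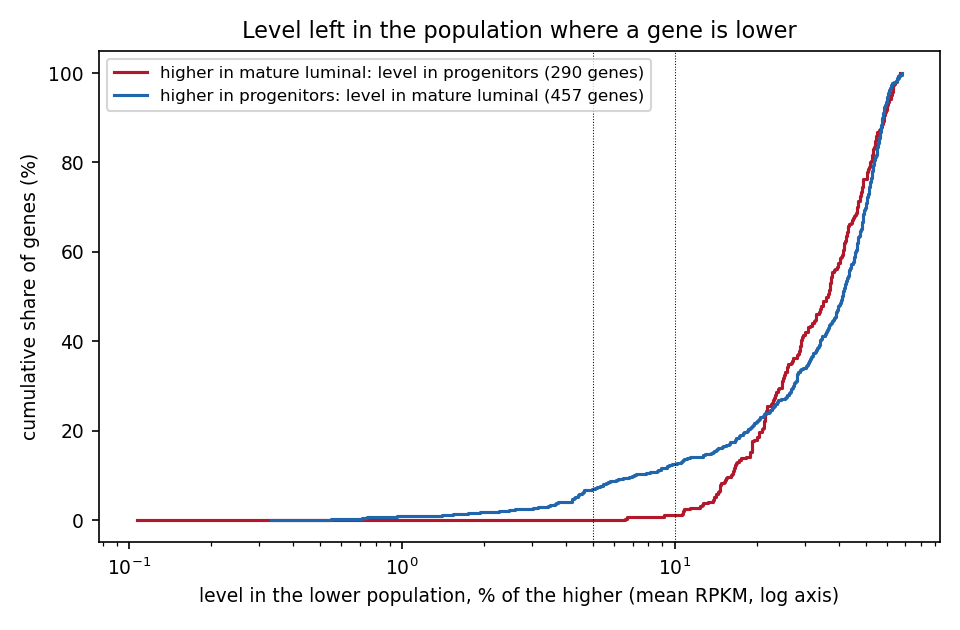
Cumulative share of called genes (vertical, %) by their level in the lower population as a percentage of the higher (horizontal, log axis), for genes with a mean of at least 50 RPKM in the higher population. The curve of the 290 mature luminal genes starts to rise near 10%, apart from Rpl37rt at 0.107%, while 33 of the 457 progenitor genes lie under 5%.

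Basal levels of most mature luminal genes lay near those of progenitors. For 237 of the 290 genes (81.7%) the basal level was within 2-fold of the progenitor level, and the median basal level was 38.2% of that in mature luminal cells. The 7 mature luminal markers summed to 1647 and 1178 RPKM in basal cells, against 1272 and 1083 RPKM in progenitors and 109 and 108 RPKM in fMaSC. Prlr was at 879.6 and 732 RPKM in basal cells and 50.3 and 49.5 RPKM in fMaSC, and Areg at 290.2 and 118 RPKM and 51.8 and 50.9 RPKM. For the 457 progenitor genes the basal level was within 2-fold of the mature luminal level in 199 (43.5%). The median basal level was 78.9% of that in progenitors, and 166 of these genes were higher in basal cells than in progenitors. The progenitor markers summed to 57.1 and 68.0 RPKM in basal cells and 1010 and 1022 RPKM in fMaSC. The 6 general luminal markers summed to 3094 and 1779 RPKM in basal cells. Their sums were 18342 and 14125 RPKM in mature luminal cells and 14774 and 21852 RPKM in progenitors. Whether basal libraries held RNA of luminal cells was not tested. The share of all genes within 2-fold was not computed.

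Tumour cells offered a separate set of libraries. PY230 is a mouse mammary tumour line that was transplanted into mice of its own strain (C57BL6J), and its luminal tumour cells were parted into SOX10 high and SOX10 low fractions with 2 libraries each. No library is shared with the normal cells, but Sox10 itself is higher in normal progenitors than in mature luminal cells. Of 13136 genes tested in the PY230 comparison 12.6% were higher and 10% lower in SOX10 high cells. Of the 975 genes tested there and higher in mature luminal cells, 27 (2.77%) were higher in SOX10 high cells and 351 (36.0%) lower, with a median log2 fold change of -0.49. Of the 1579 genes tested there and higher in progenitors, 544 (34.5%) were higher and 35 (2.22%) lower, with a median of 0.38. The median over all genes was 0.01.

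**Figure D5:**
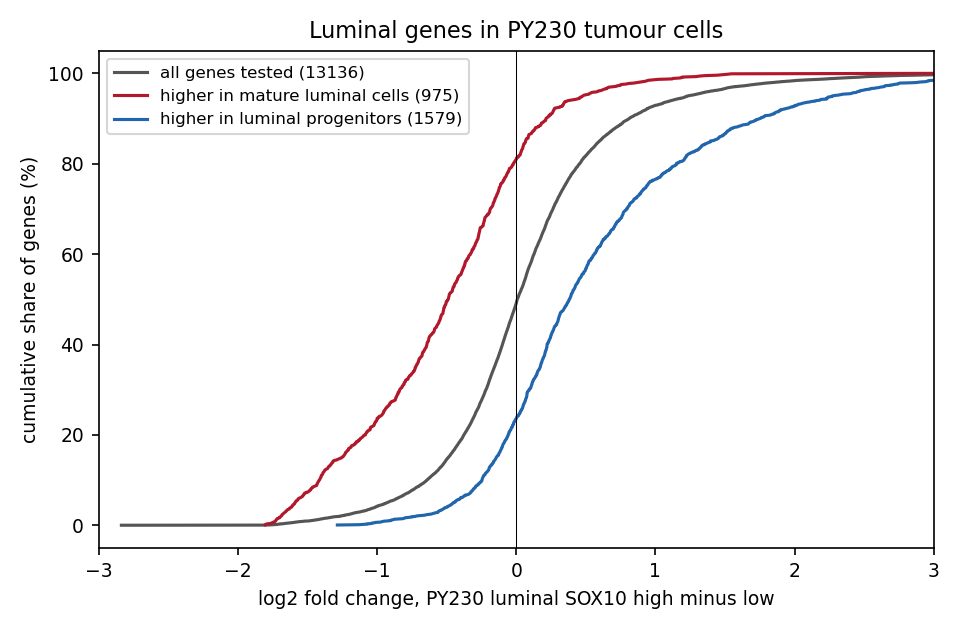
Cumulative share of genes (vertical, %) by log2 fold change between PY230 luminal SOX10 high and low cells (horizontal), for all 13136 genes tested and for those higher in normal mature luminal cells (975) or normal progenitors (1579). The mature luminal curve lies left of the curve of all genes and the progenitor curve right of it, with 19.2% and 76.4% of genes above 0.

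Named genes showed the split in the tumour libraries. Elf5 was at 129 and 101 RPKM in SOX10 high and 17.5 and 13.1 RPKM in SOX10 low cells (log2 fold change 2.83, SE 0.25, adjusted p = 0.00235), and Kit at 63.3 and 39.6 against 11.1 and 8.71 RPKM (2.24, SE 0.23, adjusted p = 0.00333). Csn3 was at 1443 and 567 against 60.3 and 84 RPKM (3.65, SE 0.47, adjusted p = 0.00608), Trf at 1479 and 659 against 57.4 and 66.6 RPKM (3.98, SE 0.44, adjusted p = 0.00424) and Lcn2 at 5255 and 2508 against 248 and 304 RPKM (3.72, SE 0.41, adjusted p = 0.00406). On the other side Cited1 was at 243 and 374 against 889 and 1251 RPKM (-1.80, SE 0.31, adjusted p = 0.0137) and Foxa1 at 27.7 and 59.9 against 132 and 149 RPKM (-1.76, SE 0.33, adjusted p = 0.0166). Fgb was at 221 and 407 against 946 and 1075 RPKM (-1.74, SE 0.38, adjusted p = 0.0246) and Wfdc2 at 225 and 596 against 1376 and 1081 RPKM (-1.73, SE 0.46, adjusted p = 0.0397). The receptors were not called: Prlr was at 56.7 and 139.6 against 215 and 249 RPKM (-1.37, SE 0.48, adjusted p = 0.0854), Pgr at 1.48 and 6.38 against 11.8 and 8.7 RPKM (-1.38, SE 0.47, adjusted p = 0.0796) and Esr1 at 3.08 and 10.6 against 22.5 and 14.1 RPKM (-1.46, SE 0.49, adjusted p = 0.075).

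Counts by list stand beside 12.6% higher and 10% lower in SOX10 high cells over all genes tested in PY230. Of 17 progenitor identity genes 11 were higher in SOX10 high cells and 0 lower (median 1.87). Of 13 milk genes 10 were higher and 0 lower (median 1.54). Hormone-sensing genes had 9 lower and 3 higher of 18 (median -1.38), and both fibrinogen chains were lower. Aldh1a3 did not follow, at 3.26 and 7.09 against 12.9 and 9.93 RPKM (-1.07, SE 0.37, adjusted p = 0.0843), nor did Mfge8, at 135 and 149 against 156 and 121 RPKM (0.05, SE 0.22, adjusted p = 0.892). Immediate early genes, lower in normal mature luminal cells, had 2 higher and 1 lower of 22 in SOX10 high cells, and respiratory chain genes 0 higher and 1 lower of 29. Some lists of cell type markers moved with the fraction and others did not. Of 4 endothelial, 10 fibroblast, 5 keratinocyte, 1 fat cell and 1 red cell markers tested none was called. Of 4 Schwann cell and melanocyte markers 1 was higher. Of 14 basal markers 6 were higher in SOX10 high cells and 0 lower (median 0.81), of 7 immune markers 2 were higher and 0 lower (median 0.77), and of 6 general luminal markers 4 were lower and 0 higher (median -0.81). Their part in the result was not tested.

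In spontaneous tumours of C3-1-TAg mice (FVB strain), titled basal and also parted by SOX10 (5 high and 4 low libraries), 5 of 11948 genes (0.0418%) were called higher in SOX10 high cells and 0 lower. Of the 5, 3 were mature luminal genes and 0 progenitor genes. The mature luminal genes had a median log2 fold change of -0.11 and the progenitor genes 0.03, against -0.04 over all genes. A constant of 2, which the values appear to hold, was taken off before this fit, and on the values as deposited 10 genes were higher and 1 lower of 17378. Between fMaSC and adult basal cells, neither of which is in the luminal comparison, 36.9% of the genes were higher in fMaSC and 23.4% lower. Of the 1083 mature luminal genes 315 were higher and 413 lower there, with a median of -0.25, while the 1687 progenitor genes had 480 higher, 513 lower and a median of -0.05. The median over all genes was 0.27 in that comparison, and after quantile normalization the 3 medians were -0.48, -0.29 and 0.00.

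Some abundant genes were level between the populations. Among genes with a mean of at least 100 RPKM, the 10 with the smallest differences included the chaperone ATPase Vcp, at 204 and 178 against 203 and 178 RPKM, and Tmbim6, at 111 and 111 against 111 and 112 RPKM. The tetraspanin Cd63 was at 1111 and 1337 against 969 and 1544 RPKM, and the ribosomal protein gene Rps9 at 326 and 295 against 254 and 370.1 RPKM. Their log2 fold changes were 0.00, -0.00, -0.01 and 0.01, with SEs of 0.17, 0.21, 0.27 and 0.25.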

How the data were processed

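The values are RPKM, which the authors deposited as one table each for normal cells, PY230 tumours and C3-1-TAg tumours. Per the submitters' processing notes, FastQC, HISAT2 2.0.5 and StringTie 1.3.1c were used with mouse genome build mm9. Per the labels' protocols, reads were single-end, 50 or 75 bp, after 18 and 10 PCR cycles. They carry no strand and no molecular identifiers. No counts were used, so depth was not known, and no interval for counting error was made. The files listed 10056 to 10397 of 24391 genes at 1 RPKM or more in the 4 luminal samples.

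Groups were taken from sample titles. limma 3.58.1 in R 4.3.3 was fitted to log2(RPKM + 1) of all 8 normal libraries with a trend in the variance, and p-values were adjusted by Benjamini-Hochberg over 12553 genes. Where nothing ties libraries to separate animals, p-values measure the spread between libraries only, which may be technical. PY230 was fitted over its 6 libraries. The C3-1-TAg table appears to hold a constant of 2 in values above 0, which no source used here states, and it was taken off before its fit. The fit was tested on simulated data with the real genes: of 50 genes each changed by a log2 of 1, 2, 3 and 4 it recovered 18%, 70%, 84% and 94%, with 5 false calls. All other genes were made equal between the compared populations, unlike in the data. Python 3.11.15 with pandas 2.3.3, numpy 2.4.6 and matplotlib 3.10.9 made summaries and plots. Promoter windows are RefSeq's for GRCm38.p6, matched by symbol, and transcript lengths are GENCODE M21's.

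The gene lists, markers and named genes were chosen with earlier results of these data known. Named are the 15 called genes with the largest difference in each direction whose populations do not overlap (unnamed loci left out), up to 4 called members a list, every member of 4 lists (hormone-sensing, progenitor identity, milk and fibrinogen), the 2 highest markers a list, uncalled members, and the 10 smallest differences at 100 RPKM or more. A few genes that this rule names are not reported here. Other genes are marked as picked after their values were seen. Alternatives were a pseudocount of 0.1, no filter, a filter of 5 RPKM, 2 other scalings, a replicate block, the 4 luminal libraries alone, no variance trend and each library left out.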

Additional observations from a re-analysis of the deposited data

How the results depend on the processing

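With 2 libraries a group, small changes were hard to see in the simulation, where recovery was 18% at a log2 change of 1. Nearly all genes were made equal there, while 22.1% were called in the data, so this recovery may not hold for the data. Called genes numbered 1083 higher and 1687 lower (39.1% higher). They numbered 921 and 1729 with a pseudocount of 0.1 (34.8%), 914 and 1387 with no filter, 930 and 1601 with 5 RPKM as the minimum, 1405 and 1507 after quantile normalization (48.2%) and 1373 and 1572 with median-of-ratios factors (46.6%). In the 4 luminal libraries alone they were 1026 and 1398, and without the variance trend 1085 and 1650. With the replicate block they were 1114 and 1679, of which 2578 calls in all were shared. No label says what a shared replicate number stands for. Deviations of same-numbered libraries of the 2 populations had a correlation of 0.0742 across 12553 genes, while basal libraries gave 0.221 with mature luminal and 0.108 with progenitor libraries. Leaving out 1 library gave 954 to 1474 calls, 308 to 500 higher and 646 to 1018 lower, with the lone library assumed to vary like the other groups. Of 155 called genes examined singly, 94 kept their call throughout and 0 reversed. The median over all genes, -0.04, was -0.11 with the 5 RPKM minimum and 0.011 after quantile normalization, and -0.078 to -0.0028 with 1 library left out; the cause was not tested.

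List medians moved as follows, with causes not tested. A pseudocount of 0.1 gave 2.39 for hormone-sensing, -3.20 for progenitor identity, -4.10 for milk, -2.60 for defence, -0.41 for transcription factor, -0.42 for cell cycle, -0.76 for G1 and inhibitor, -1.22 for Wnt, -0.90 for EGF, -0.53 for chemokine and -0.20 for retinoid genes. No filter gave -1.14 for defence, -0.36 for Notch and -0.17 for Wnt genes. The 5 RPKM minimum gave -3.89 for milk, -2.40 for defence, 0.33 for interferon, -1.51 for prolactin, -0.60 for EGF and -0.33 for retinoid genes. Quantile normalization gave 2.0 for fibrinogen, 0.32 for interferon, -0.25 for transcription factor, -0.48 for Notch, 0.26 for secretory and 0.86 for respiratory genes, and median-of-ratios factors gave -0.27 for transcription factor and 0.85 for respiratory genes.

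With 1 library left out, medians ranged from 1.96 to 2.22 for hormone-sensing, -2.72 to -2.15 for progenitor, -3.38 to -2.85 for milk, -2.29 to -1.68 for defence and 2.15 to 2.38 for fibrinogen genes. They ranged from 0.85 to 0.94 for antigen presentation, 0.14 to 0.24 for interferon, -0.39 to -0.07 for keratin, -0.38 to -0.30 for transcription factor, -0.06 to -0.02 for prolactin, -0.36 to -0.16 for cell cycle and -0.53 to -0.28 for G1 genes. The ranges were -0.58 to -0.34 for Notch, -0.57 to -0.32 for Wnt, -0.44 to -0.36 for EGF, -2.35 to -1.73 for immediate early, -0.63 to -0.12 for chemokine, -0.26 to 0.00 for retinoid and -0.59 to -0.36 for transport genes. They were 0.02 to 0.22 for fatty acid, -0.63 to -0.38 for glycolysis, 0.10 to 0.17 for secretory, 0.65 to 0.76 for respiratory, 0.08 to 0.61 for ribosomal and 0.11 to 0.76 for noncoding RNA genes.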

Other observations

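Some genes that most cells use were listed near 0. Gapdh, a glycolytic enzyme with many pseudogene copies, was at 0.309 and 0.473 RPKM in mature luminal cells and 1.04 and 0.995 RPKM in progenitors. Another gene of the glycolysis list, the lactate dehydrogenase Ldha, was at 950.3 and 646 RPKM against 884 and 1125 RPKM. How reads that match several copies were counted is not given in the sources used here, so levels of such genes are uncertain.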
